A study of Homo sapiens and Mus musculus with 213 samples.

Results

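The genes that encode receptors for fast and modulatory transmitters were followed by RNA-seq in 3 lines of HEK293T cells, which were immortalized from cells of a human embryonic kidney. The members are the protein-coding genes of the GENCODE annotation whose symbols name subunits of GABA-A, glycine, ionotropic glutamate and nicotinic acetylcholine receptors, or metabotropic glutamate, muscarinic, serotonin, dopamine and adrenergic receptors. There were 102 members among the 58336 genes listed, and 90 of them had a read in at least 1 library. One of the symbols that match names a receptor-binding protein and not a receptor. MYC WT cells keep the natural G-quadruplex (G4) motif, a guanine-rich sequence that folds into stacked guanine tetrads, at the promoter of MYC. MYC MUT cells carry mutations in the guanine runs of that motif that prevent folding. SWP cells carry in its place a G4-forming sequence from the promoter of another human gene. Both edits were made with CRISPR, and the edited lines were grown from single sorted cells that were homozygous for the edit, so that a difference between lines and a difference between clones cannot be told apart. There were 3 libraries of each line, none with a treatment. The deposited values are read counts divided by 1 size factor per library, called normalized counts here.

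Neurotransmitter receptors fall into 2 structural classes. Ligand-gated channels are assembled from several subunits, each from a gene of its own, and open an ion pore when the transmitter binds. Receptors coupled to G proteins have no pore of their own and act through messengers inside the cell. Most are known from neurons, muscle and endocrine cells. HEK293 cells are widely used to express cloned receptors and are known to carry some of their own, among them the muscarinic M3 receptor.

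Libraries held 65024354 to 98497026 reads on genes, and SWP replicate 2 was the deepest. MYC itself had 20020.3, 28396 and 21580.1 normalized counts in the 3 MYC WT libraries, 10693, 11176 and 12399.8 in MYC MUT and 14480.1, 24743 and 25245 in SWP. It was lower in MYC MUT than in MYC WT (log2 fold change -1.02, SE 0.19, adjusted p = 0.00182) and did not pass the test in SWP (log2 fold change -0.15, SE 0.19, adjusted p = 0.712). The 12 markers of embryonic kidney and epithelium summed to between 71049 and 85457, while the 8 of the mature nephron summed to between 11.6 and 31.4, with UMOD at 0 in all 9 libraries. Of 9 neuron markers tested, 6 were higher and 1 was lower in MYC MUT than in MYC WT, against 11.3% and 10.1% of all genes tested. The 13 neuron markers listed summed to 21616 to 23828 in MYC WT, 27252 to 28365 in MYC MUT and 16722 to 21971 in SWP, most of it from the neurofilament genes NEFL and NEFM, while STMN2, ELAVL3, ELAVL4 and DCX stayed under 10 in every library and SNAP25 had 4.81 to 5.61, 156 to 188 and 0 to 5.94. The 8 astrocyte and oligodendrocyte markers summed to 356 to 465, 202 to 236 and 170 to 354 in the same order, and SOX10 had at most 1.15. The 7 blood cell markers summed to between 83.6 and 158, with HBB at 0 in all 9 libraries, and the 8 fibroblast and muscle markers to between 1004 and 2208. The part of these markers in the receptor results was not tested. The names of the 3 MYC WT libraries in the files carry the tag of a sequencing pool that the other names lack, so pool and line cannot be told apart.

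Receptor genes were mostly silent or low in these cells, as were most genes listed, and those above the minimum were more often higher than lower in MYC MUT. Of the 102 members, 40 had a mean of at least 10 normalized counts over the 9 libraries and were tested, 12 had no read at all and 50 lay in between. In 43 of these 50 no library reached 10 normalized counts. The share tested was 39.2% of the members and 35.8% of all 58336 genes listed. Of these listed genes, 37215 had a read. Among the 40, 31 had a mean of at least 10 in each line and 3 (ADRA2B, GLRA3 and GRM2) reached 10 in MYC MUT alone. The counts over the 40 are therefore given as a description. The test was limma's, on log2(normalized count + 1), and a gene was called where its adjusted p lay under 0.05 and its log2 fold change beyond 0.5 in either direction. In MYC MUT against MYC WT, 21 of the 40 were higher and 3 lower, where 11.3% and 10.1% of the 20884 genes tested across the genome were called in these directions and 21.4% in either. The median log2 fold change of the 40 was 0.70, beside -0.0034 over all genes tested. It was 0.24 over the 25 members with a mean of at least 50 and 0.33 over the 90 members with a read. In SWP against MYC WT, 2 were higher and 8 lower, where 2.15% and 2.98% of all genes tested were and 5.13% were called in either direction, and the medians were -0.27 and -0.055. With every library scaled to the same total, 2874 of all genes were higher and 1600 lower in MYC MUT than in MYC WT, in place of 2365 and 2111, and 21 and 2 of the receptor genes. With the replicate number as a block, an alternative to the main fit, SWP had 4 higher and 11 lower. The shares of all genes also rose, to 2.83% and 4.18%. The values of MYC WT and MYC MUT did not overlap in 27 of the 40 genes, where 52.3% of all genes tested did not overlap, and those of MYC WT and SWP in 18, where the share was 24.6%. The 2 edited lines share the MYC WT libraries, and were therefore also compared with each other: 21 members were higher and 2 lower in MYC MUT than in SWP, where 12.3% and 8.31% of all genes were and 20.6% in either direction, with medians of 0.68 and 0.044. Of the 22 ion channel subunits tested, 11 were higher and 2 lower in MYC MUT than in MYC WT, with a median of 0.42, and of the 17 receptors coupled to G proteins 10 were higher and 1 was lower, with a median of 1.201. In bulk RNA, more cells that express a gene and more RNA per cell cannot be told apart. For a single gene, exact two-sided permutation of 3 libraries against 3 can give no p below 0.1, the value reached wherever the libraries did not overlap.

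**Figure D1:**
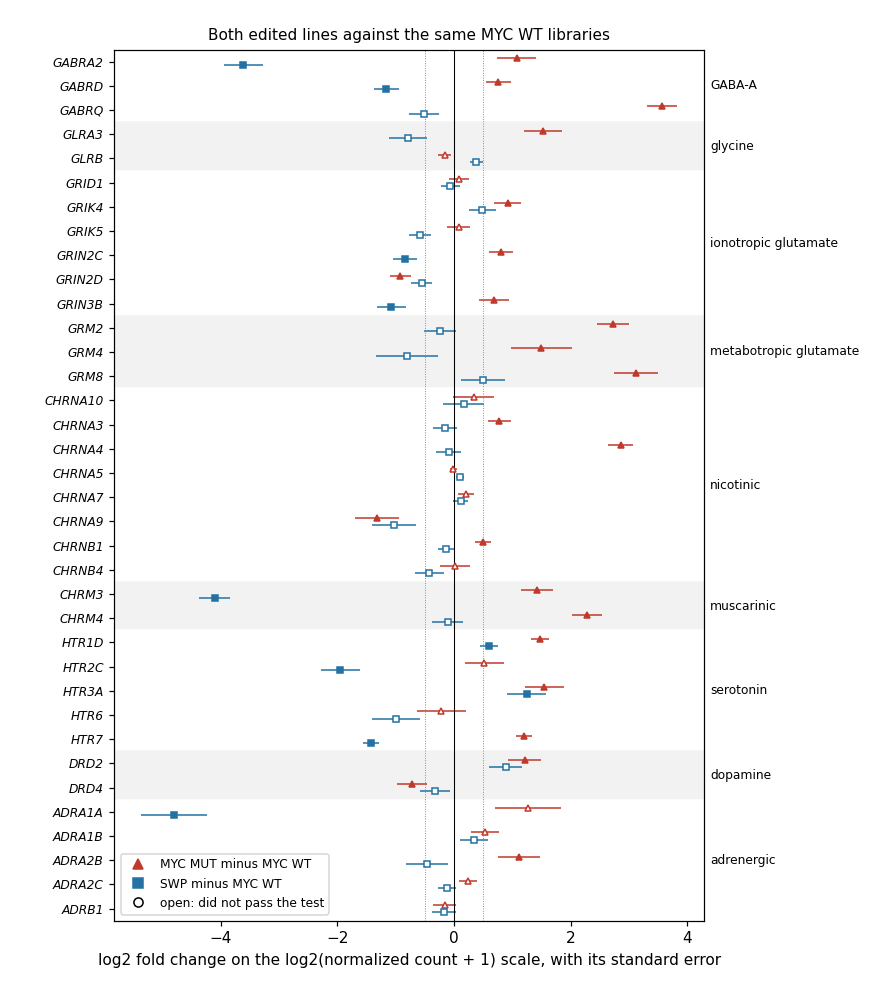
Log2 fold change of 36 of the receptor genes tested in MYC MUT (red triangles) and SWP (blue squares) against the same 3 MYC WT libraries, with standard errors; filled marks passed the test and dotted lines mark 0.5 in either direction. The red marks lie mostly to the right of 0, with GABRQ at 3.57, and the blue marks of GABRA2, CHRM3 and ADRA1A lie below -3. For GABRA2 (0 reads in SWP) and ADRA1A (1 read) the fitted value depends strongly on the count of 1 added before taking logarithms.

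The promoters of 4 members are shown, as the RefSeq table for GRCh38.p14 gives them from 250 bases before to 50 bases after the start site. GABRQ, GRM2 and CHRM4 had the largest rises in MYC MUT among the members with a single entry in that table, and HTR7 was called in opposite directions in the 2 edited lines. Capitals mark the GC box GGGCGG, to which factors of the Sp family are known to bind, on either strand, and in GRM2 also TTCAGCACC, the first part of the element known to bind the neuronal repressor REST. The windows are chrX:152637645-152637944, plus strand for GABRQ, chr3:51706818-51707117, plus strand for GRM2, chr11:46391727-46392026, minus strand for CHRM4 and chr10:90857990-90858289, minus strand for HTR7, each written along the gene's own strand.
GABRQ: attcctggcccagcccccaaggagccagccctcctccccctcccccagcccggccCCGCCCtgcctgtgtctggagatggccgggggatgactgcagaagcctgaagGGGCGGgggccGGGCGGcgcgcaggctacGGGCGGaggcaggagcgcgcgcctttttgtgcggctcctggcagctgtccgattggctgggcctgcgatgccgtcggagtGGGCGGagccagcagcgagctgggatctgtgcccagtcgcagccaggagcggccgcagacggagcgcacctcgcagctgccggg
GRM2: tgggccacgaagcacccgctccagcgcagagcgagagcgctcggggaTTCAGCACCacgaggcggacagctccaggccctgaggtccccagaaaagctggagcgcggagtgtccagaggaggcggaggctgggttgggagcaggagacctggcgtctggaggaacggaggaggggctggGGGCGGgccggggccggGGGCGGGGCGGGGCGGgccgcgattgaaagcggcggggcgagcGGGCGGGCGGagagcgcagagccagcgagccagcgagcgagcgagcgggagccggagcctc
CHRM4: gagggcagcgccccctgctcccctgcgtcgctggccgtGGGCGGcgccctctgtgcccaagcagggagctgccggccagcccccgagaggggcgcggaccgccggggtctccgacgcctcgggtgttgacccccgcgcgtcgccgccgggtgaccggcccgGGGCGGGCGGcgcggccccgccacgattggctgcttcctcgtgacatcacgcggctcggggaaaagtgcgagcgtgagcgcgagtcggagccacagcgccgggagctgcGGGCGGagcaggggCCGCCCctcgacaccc
HTR7: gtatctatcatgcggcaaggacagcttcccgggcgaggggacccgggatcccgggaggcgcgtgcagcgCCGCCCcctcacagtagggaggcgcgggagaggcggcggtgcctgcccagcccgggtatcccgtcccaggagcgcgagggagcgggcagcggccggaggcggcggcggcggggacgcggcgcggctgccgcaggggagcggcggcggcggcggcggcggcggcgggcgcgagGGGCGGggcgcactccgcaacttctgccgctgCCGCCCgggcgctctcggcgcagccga

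These windows hold 5, 6, 5 and 3 GC boxes, counting overlapping matches, and are 73.7%, 74.7%, 78.3% and 80.3% G and C. A GC box is in 45.0% of the 35116 promoter windows of the table. Of the 75 members with an entry, 43 have it in at least 1 of their windows, as do 48.3% of all genes in the table. Of the tested members with an entry, it is in 12 of the 14 that were higher in MYC MUT and in 10 of the other 14. The letters TTCAGCACC are in 0.376% of all windows, in 0.469% of all genes and in 3 of the 75 members. Of the tested members only GRM2 has them. The E-box CACGTG, which MYC and its partner MAX are known to bind, is in 7.26% of windows and 8.77% of all genes. It is in 7 of the 75 members and in 4 of the 28 tested (CHRNA7, DRD4, GRM4 and HTR6). Of these, 1 was among the 14 that were higher in MYC MUT and 3 among the other 14. These are matches of letters and not sites at which binding was measured.

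Levels between genes can be compared only per length of transcript. Per kilobase of annotated exon, CHRNA5 was the most abundant member in MYC WT, at 1086 ± 54.1 normalized counts (SD, n = 3 for this and the following values). ADRA2C followed at 785 ± 79.6, and these 2 levels lay further apart than their spread. GLRB (215 ± 22.7), GRID1 (175 ± 32.5) and CHRNB1 (157 ± 22.5) came further down, followed by GRIN2D (126 ± 16.7). Each of these 4 genes overlapped the next of them in its libraries. Lower levels were those of CHRNA3 (55.2 ± 7.99), GABRD (46.6 ± 10.6) and HTR6 (42.9 ± 22.8), which overlapped in the same way. Only 15 members had a mean of at least 100 normalized counts in MYC WT. Of the 10 highest, GABRD, CHRNA3 and CHRNB1 were higher and GRIN2D was lower in MYC MUT, while CHRNA5, ADRA2C, GLRB, GRID1 and HTR6 did not pass the test there.

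**Figure D2:**
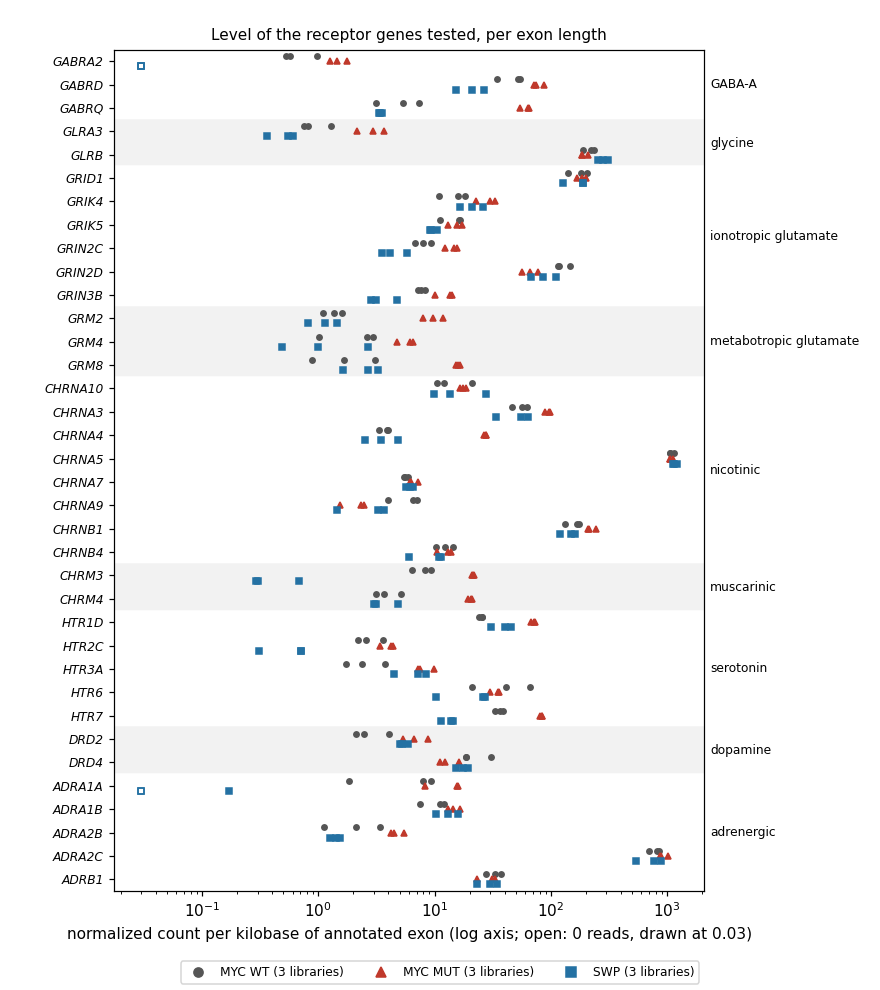
Normalized count per kilobase of annotated exon (log axis) of 36 of the receptor genes tested, with 1 mark for each of 3 libraries of MYC WT (grey circles), MYC MUT (red triangles) and SWP (blue squares). CHRNA5 and ADRA2C lie furthest to the right in all lines, and open squares mark libraries without a read of GABRA2 or ADRA1A.

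GABA-A receptors are chloride channels of 5 subunits that carry most fast inhibition in the brain. Of their 19 subunit genes, 14 had a read and 4 were tested. GABRQ (ENSG00000268089, chrX:152637895-152657542, plus strand), which encodes the theta subunit, had 47.2, 20.2 and 34.7 normalized counts in MYC WT, 422, 412 and 352 in MYC MUT and 22.9, 21.5 and 21.9 in SWP. All MYC MUT libraries were far above all others, and MYC WT and SWP overlapped. Its level in MYC MUT was called higher both against MYC WT (log2 fold change 3.57, SE 0.26, adjusted p = 3.08e-06) and against SWP (log2 fold change 4.09, SE 0.26, adjusted p = 6.95e-07), and SWP against MYC WT did not pass the test (log2 fold change -0.52, SE 0.26, adjusted p = 0.25). That pair was called only when MYC WT replicate 2 was left out (log2 fold change -0.84, adjusted p = 0.0245). The other 91 genes tested within 5 Mb of GABRQ had a median of -0.13 on the log2 scale in MYC MUT.

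GABRD (ENSG00000187730, chr1:2019329-2030758, plus strand), the delta subunit of receptors outside the synapse, had 191, 297 and 285 normalized counts in MYC WT, 395, 414 and 485 in MYC MUT and 83.6, 116 and 146 in SWP. The 3 lines did not overlap, with MYC MUT highest and SWP lowest. It was called higher in MYC MUT (log2 fold change 0.76, SE 0.22, adjusted p = 0.0168) and lower in SWP (log2 fold change -1.16, SE 0.22, adjusted p = 0.00609), and the edited lines differed (log2 fold change 1.92, SE 0.22, adjusted p = 5.14e-05). The first of these calls was lost in 1 of 20 alternatives, leaving out MYC MUT replicate 3, with an adjusted p of 0.0676. GABRA2 (ENSG00000151834, chr4:46243548-46475230, minus strand), the alpha-2 subunit, had 16.4, 8.98 and 9.63 normalized counts in MYC WT and 29.6, 24.3 and 21.4 in MYC MUT, and no read in any SWP library. Against a floor of 3 reads per library, its level was at least 3.84-fold higher in MYC WT than in SWP (adjusted p = 5.42e-05) and at least 8.25-fold higher in MYC MUT than in SWP (adjusted p = 1.82e-06). In MYC MUT it was above MYC WT (log2 fold change 1.08, SE 0.34, adjusted p = 0.0259), a call that was lost in 8 of 19 alternatives, with a pseudocount of 0.1, with no minimum count, with DESeq2 and leaving out MYC WT replicate 2 or 3, or any MYC MUT library, with an adjusted p of 0.0513 to 0.104. The 29 other genes tested within 5 Mb had a median of -0.089 in SWP.

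GABA-A subunit genes lie in clusters, and the neighbours of GABRQ and GABRA2 did not share their levels. GABRA5 and GABRG3, on chromosome 15, had no read in any library. GABRE and GABRA3, beside GABRQ on chromosome X, reached at most 2.29 and 1.15 normalized counts. GABRA4 and GABRB1, beside GABRA2 on chromosome 4, reached at most 0 and 1.03, and GABRG1 in the same cluster 4.86 in MYC MUT and 0 in SWP. None of the 3 gamma subunit genes, whose products are needed for the common synaptic form, passed the minimum.

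**Figure D3:**
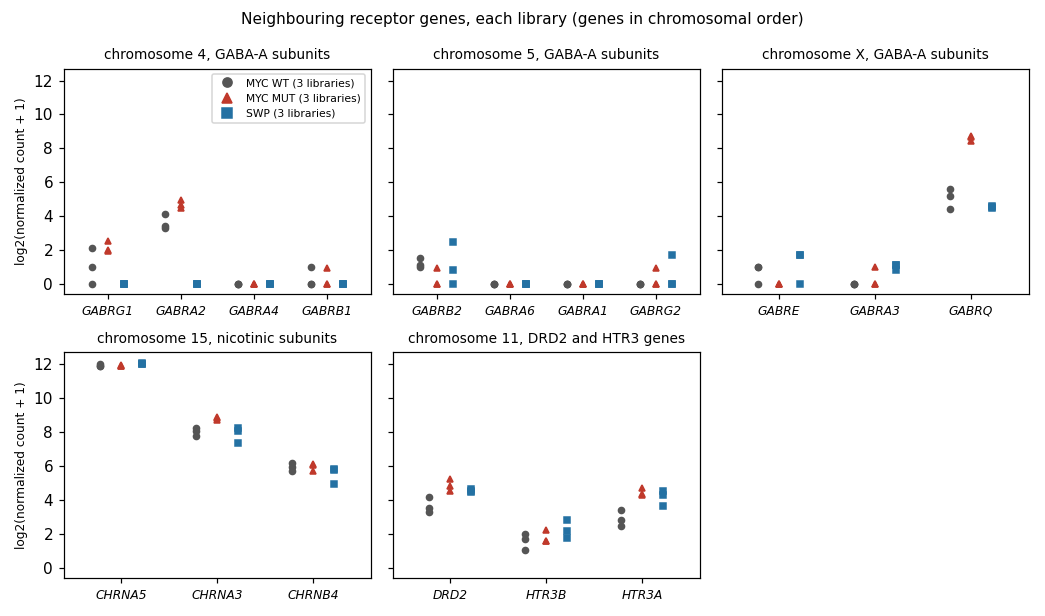
log2(normalized count + 1) of receptor genes that neighbour each other, in chromosomal order within each panel, with 1 mark for each of 3 libraries of MYC WT (grey circles), MYC MUT (red triangles) and SWP (blue squares). Within most panels 1 gene stands above its neighbours, and GABRQ is the gene whose MYC MUT libraries stand furthest from the others.

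Glycine receptors are the related chloride channels of spinal cord and brainstem. Of their 4 genes, 3 had a read and 2 were tested. In SWP against MYC WT limma called neither, although both had an unadjusted p under 0.05, and edgeR and DESeq2 called 0. GLRA3 (ENSG00000145451, chr4:174636920-174829247, minus strand), a ligand-binding alpha subunit, had 7.18, 12.3 and 7.70 normalized counts in MYC WT, 20.3, 35.0 and 28.3 in MYC MUT and 5.73, 5.20 and 3.46 in SWP. All MYC MUT libraries were above all MYC WT libraries, which were above all SWP libraries. The rise of GLRA3 in MYC MUT was called both against MYC WT (log2 fold change 1.52, SE 0.33, adjusted p = 0.00371) and against SWP (log2 fold change 2.31, SE 0.33, adjusted p = 0.000258), and SWP against MYC WT did not pass (log2 fold change -0.78, SE 0.33, adjusted p = 0.169). GLRB, the beta subunit that ties the receptor to the scaffold gephyrin, had 644 to 791 normalized counts in MYC WT, 625 to 703 in MYC MUT and 855 to 1056 in SWP. It was lower in MYC MUT than in SWP (log2 fold change -0.54, SE 0.11, adjusted p = 0.00269), which fell under the fold threshold without SWP replicate 2 (log2 fold change -0.46), and did not pass in either edited line against MYC WT.

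Ionotropic glutamate receptors (AMPA, kainate, NMDA and delta types) carry most fast excitation. All 19 members grouped here had a read, and 8 were tested. The 4 AMPA subunit genes GRIA1 to GRIA4 reached at most 2.92 normalized counts in any library. The NMDA genes above the minimum were GRIN2C, GRIN2D and GRIN3B. GRIN1, the subunit that every NMDA receptor needs, had 1.93 to 3.37 in MYC WT, 3.90 to 9.72 in MYC MUT and 1.15 to 2.31 in SWP.

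GRIN2D (ENSG00000105464, chr19:48393668-48444931, plus strand), the GluN2D subunit best known from development, had 639, 801 and 646 normalized counts in MYC WT, 312, 364 and 428 in MYC MUT and 369, 467 and 610.0 in SWP. All MYC MUT and SWP libraries were below all MYC WT libraries. It was called lower in MYC MUT (log2 fold change -0.92, SE 0.18, adjusted p = 0.00217). In SWP the difference did not pass (log2 fold change -0.55, SE 0.18, adjusted p = 0.0821), but it was called in 2 of 20 alternatives, with the replicate number as a block and leaving out SWP replicate 3, with an adjusted p of 0.0105 to 0.029. GRIN2C (ENSG00000161509, chr17:74842023-74861504, minus strand), the GluN2C subunit of cerebellar granule cells, had 80.0, 68.5 and 58.7 normalized counts in MYC WT, 134, 125 and 105.2 in MYC MUT and 49.3, 30.5 and 35.7 in SWP. GRIN2C was called higher in MYC MUT (log2 fold change 0.81, SE 0.21, adjusted p = 0.0102) and lower in SWP (log2 fold change -0.84, SE 0.21, adjusted p = 0.0262), and the 3 lines did not overlap. The call in SWP was lost in 5 of 20 alternatives, with only the 2 groups compared and leaving out MYC WT replicate 1 or 2, or SWP replicate 2 or 3, with an adjusted p of 0.0653 to 0.0915. The 2 edited lines differed in GRIN2C (log2 fold change 1.65, SE 0.21, adjusted p = 0.000116).

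GRIN3B (ENSG00000116032, chr19:1000419-1009732, plus strand), a glycine-binding NMDA subunit known from motor neurons, had 23.6, 26.9 and 25.0 normalized counts in MYC WT, 33.3, 46.7 and 44.8 in MYC MUT and 10.3, 15.6 and 9.23 in SWP, again without overlap. The rise in MYC MUT (log2 fold change 0.69, SE 0.25, adjusted p = 0.0496) was lost in 8 of 19 alternatives, with a pseudocount of 0.1, with no minimum count, with DESeq2 and leaving out any MYC WT library, or MYC MUT replicate 2 or 3, with an adjusted p of 0.0566 to 0.158. The fall in SWP (log2 fold change -1.07, SE 0.25, adjusted p = 0.0204) was lost in 6 of 19 alternatives, with no minimum count, with only the 2 groups compared, with DESeq2 and leaving out MYC WT replicate 2 or 3, or SWP replicate 3, with an adjusted p of 0.0543 to 0.0811. MYC MUT against SWP was called (log2 fold change 1.76, SE 0.25, adjusted p = 0.000272).

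Of the kainate subunits, GRIK4, a high-affinity subunit, had 82.0 to 137 normalized counts in MYC WT, 168 to 245 in MYC MUT and 123 to 195 in SWP. It was called higher in MYC MUT (log2 fold change 0.92, SE 0.23, adjusted p = 0.0084) and not in SWP (log2 fold change 0.49, SE 0.23, adjusted p = 0.224). GRIK5, its close relative, had 63.5 to 94.3, 75.0 to 99.2 and 52.0 to 59.6 in the same order. It was called only between the edited lines (log2 fold change 0.66, SE 0.19, adjusted p = 0.0194), and this was lost in 4 of 20 alternatives, leaving out MYC MUT replicate 1 or 2, or SWP replicate 2 or 3, with an adjusted p of 0.0552 to 0.0829. SWP against MYC WT was called for GRIK5 in 2 of 20 alternatives, with the replicate number as a block and leaving out MYC WT replicate 3, with an adjusted p of 0.0265 to 0.0388. Delta receptors bind cerebellins more than glutamate. GRID1 had 868 to 1267, 1045 to 1241 and 795 to 1186 normalized counts, with log2 fold changes of 0.087 in MYC MUT and -0.060 in SWP (SE 0.17 for each), neither past the test.

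Metabotropic glutamate receptors act through G proteins. Of 8 genes, all with a read, 3 were tested. All 3 were called higher in MYC MUT, where 11.3% of all genes tested were. GRM2 reached a mean of 10 in MYC MUT alone, so this count is partly set by the minimum. None was called in SWP, where limma gave 0 unadjusted p under 0.05 and edgeR and DESeq2 called 0. All 3 encode receptors that couple to inhibitory G proteins. GRM8 (ENSG00000179603, chr7:126438598-127253093, minus strand) had 19.5, 5.61 and 10.6 normalized counts in MYC WT, 104, 100.1 and 97.4 in MYC MUT and 10.3, 17.1 and 20.8 in SWP. GRM2 (ENSG00000164082, chr3:51707068-51718613, plus strand), whose promoter is printed above, had 11.3, 7.86 and 9.63 in MYC WT, 83.2, 68.0 and 56.5 in MYC MUT and 10.3, 8.17 and 5.77 in SWP. In both genes MYC WT and SWP overlapped and all MYC MUT libraries lay above them. The rise in MYC MUT was 3.13 on the log2 scale for GRM8 (SE 0.38, adjusted p = 9.57e-05) and 2.73 for GRM2 (SE 0.28, adjusted p = 2.91e-05). Against SWP it was 2.63 (SE 0.38, adjusted p = 0.000293) and 2.97 (SE 0.28, adjusted p = 1.24e-05).

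GRM4 (ENSG00000124493, chr6:34018643-34155622, minus strand) had 16.4, 42.7 and 48.1 normalized counts in MYC WT, 77.6, 106 and 99.4 in MYC MUT and 8.02, 16.3 and 43.8 in SWP, with a wide spread in both MYC WT and SWP. Its rise in MYC MUT (log2 fold change 1.50, SE 0.53, adjusted p = 0.0427) was lost in 8 of 20 alternatives, with no minimum count, without a variance trend and leaving out MYC WT replicate 1 or 2, or any MYC MUT library, or SWP replicate 2, with an adjusted p of 0.0545 to 0.127. The difference between the edited lines was called in the main test (log2 fold change 2.30, SE 0.53, adjusted p = 0.0053) and in each of its 20 alternatives. The other 5 genes of the family were under the minimum. Among them GRM5, a receptor coupled to phospholipase C, had 1 read in all 3 MYC WT libraries, 25 in MYC MUT and 2 in SWP, a ratio of 23.2 between MYC MUT and MYC WT with a 95% counting interval of 3.79 to 951. An antisense gene shares 50.2% of the exon bases of GRM5, and reads of the 2 cannot be told apart where the counting did not use strand.

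**Figure D4:**
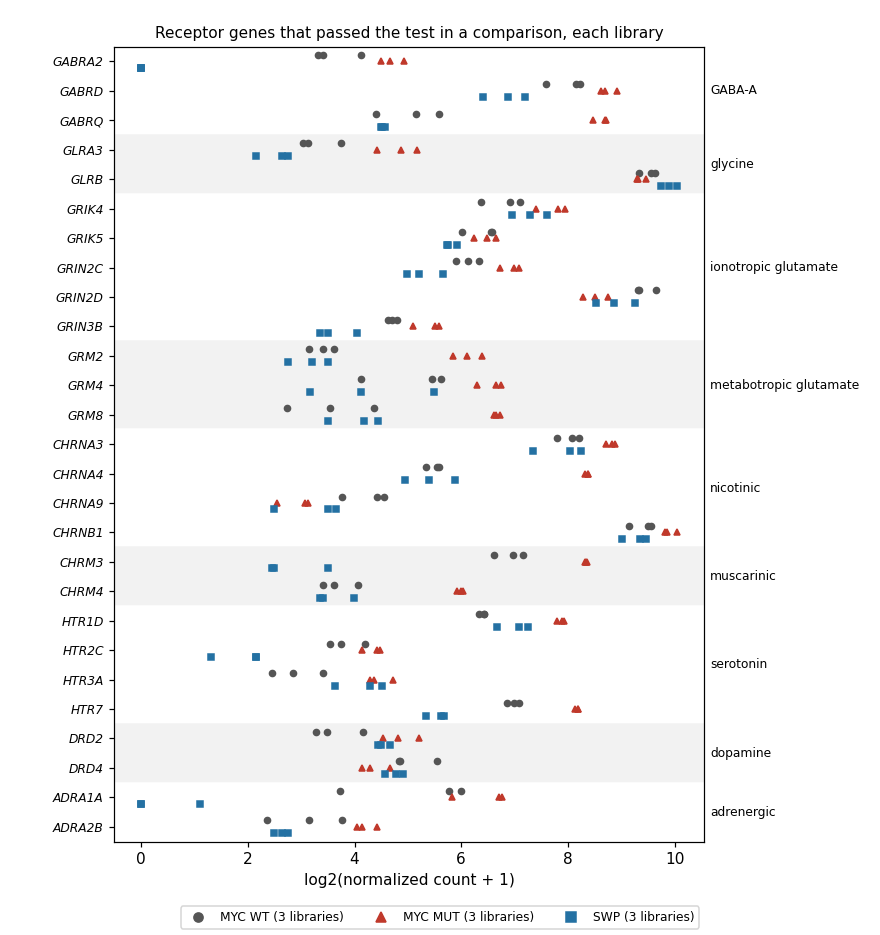
log2(normalized count + 1) of 27 receptor genes called in at least 1 of the 3 comparisons, with 1 mark for each of 3 libraries of MYC WT (grey circles), MYC MUT (red triangles) and SWP (blue squares), grouped by transmitter. The 3 MYC MUT libraries of GABRQ, GRM2, GRM8, CHRNA4 and CHRM4 stand clear of the other 6, and the SWP libraries of GABRA2, CHRM3, HTR2C and ADRA1A lie to the left.

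Nicotinic acetylcholine receptors are cation channels of muscle, ganglia and brain. All 16 genes had a read and 8 were tested. In SWP against MYC WT limma called 0 of them, with 1 unadjusted p under 0.05, and edgeR and DESeq2 called 0. CHRNA4 (ENSG00000101204, chr20:63343223-63378401, minus strand), the alpha-4 subunit of the main nicotinic receptor of the brain, had 47.2, 46.0 and 39.5 normalized counts in MYC WT, 317, 331 and 331 in MYC MUT and 29.8, 40.9 and 57.7 in SWP. MYC WT and SWP overlapped and MYC MUT stood above both. It was called higher in MYC MUT (log2 fold change 2.86, SE 0.21, adjusted p = 3.96e-06) and not in SWP (log2 fold change -0.092, SE 0.21, adjusted p = 0.848), and the edited lines differed (log2 fold change 2.95, SE 0.21, adjusted p = 2.02e-06). The 82 other genes tested within 5 Mb had a median of 0.38 in MYC MUT. CHRNB2, the beta subunit with which alpha-4 is known to assemble, had at most 4.62 normalized counts in any library.

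CHRNA5, CHRNA3 and CHRNB4 encode subunits of ganglionic receptors and lie side by side on chromosome 15. CHRNA3 (chr15:78593052-78621295, minus strand) had 221, 296 and 271 normalized counts in MYC WT, 421, 455 and 471 in MYC MUT and 162, 262 and 301 in SWP, and was called higher in MYC MUT both against MYC WT (log2 fold change 0.78, SE 0.20, adjusted p = 0.0109) and against SWP (log2 fold change 0.94, SE 0.20, adjusted p = 0.00392). CHRNA5 (chr15:78565520-78595269, plus strand) had 4161, 3799.5 and 3849 in MYC WT, 3839.9, 4035 and 3852 in MYC MUT and 4090.0, 4411 and 4176 in SWP, with log2 fold changes of -0.0093 and 0.10 (SE 0.065), both within the threshold. CHRNB4 (chr15:78624111-78727754, minus strand) had 51.3 to 71.8 in MYC WT, 51.8 to 69.2 in MYC MUT and 29.8 to 56.5 in SWP, and its lines overlapped. So 1 of 3 neighbours passed the test. A gene on the opposite strand shares 23.0% of the exon bases of CHRNA5, and the use of strand in the counting is not given in the sources used here.

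CHRNB1, the beta subunit of the muscle receptor, had 569 to 748 normalized counts in MYC WT, 899 to 1059 in MYC MUT and 518 to 701 in SWP. Its rise in MYC MUT was called against SWP (log2 fold change 0.63, SE 0.14, adjusted p = 0.00405) and, at the edge of the fold threshold, against MYC WT (log2 fold change 0.50, SE 0.14, adjusted p = 0.014). The second of these calls was lost in 3 of 20 alternatives, with a pseudocount of 10 and leaving out MYC WT replicate 1, or MYC MUT replicate 2, with an adjusted p of 0.014 to 0.0636, each time with a log2 fold change below 0.5. A further gene on the same strand shares 14.5% of its exon bases. CHRNA9 (chr4:40335333-40355217, plus strand), a subunit of hair cell receptors, had 20.5, 22.4 and 12.5 normalized counts in MYC WT, 7.40, 4.86 and 7.79 in MYC MUT and 4.58, 10.4 and 11.5 in SWP. It was called lower in MYC MUT (log2 fold change -1.33, SE 0.38, adjusted p = 0.0176), and did not pass in SWP (log2 fold change -1.03, SE 0.38, adjusted p = 0.121). The call in MYC MUT was lost in 2 of 19 alternatives, leaving out MYC WT replicate 2, or MYC MUT replicate 2, with an adjusted p of 0.0646 to 0.0693. CHRNA10, with which alpha-9 is known to assemble, had 28.1 to 56.4, 44.4 to 50.7 and 26.7 to 74.5, and its lines overlapped. CHRNA7, which forms receptors of a single kind of subunit, had 116 to 126, 130.3 to 153 and 120.4 to 139 and passed no test. CHRFAM7A holds a near copy of part of CHRNA7, so that its counts are uncertain.

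Muscarinic acetylcholine receptors couple to G proteins. All 5 genes had a read and 2 were tested. CHRM3 (ENSG00000133019, chr1:239386565-239915452, plus strand), the M3 receptor that raises calcium through phospholipase C, had 97.4, 141 and 125 normalized counts in MYC WT, 319, 324 and 329 in MYC MUT and 4.58, 4.46 and 10.4 in SWP. The 3 lines did not overlap, and SWP retained only a few reads. CHRM3 was called higher in MYC MUT (log2 fold change 1.43, SE 0.27, adjusted p = 0.00177) and lower in SWP (log2 fold change -4.11, SE 0.27, adjusted p = 4.74e-06), and the edited lines differed (log2 fold change 5.53, SE 0.27, adjusted p = 1.09e-07). These calls held in all 20 alternatives of each comparison. The 49 other genes tested within 5 Mb had medians of -0.18 in MYC MUT and -0.061 in SWP.

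CHRM4 (ENSG00000180720, chr11:46383789-46391776, minus strand), the M4 receptor that couples to inhibitory G proteins, had 11.3, 15.7 and 9.63 normalized counts in MYC WT, 62.9, 59.3 and 64.3 in MYC MUT and 14.9, 9.66 and 9.23 in SWP. MYC WT and SWP overlapped, and MYC MUT was above them. MYC MUT was called higher for CHRM4 both against MYC WT (log2 fold change 2.28, SE 0.26, adjusted p = 6.78e-05) and against SWP (log2 fold change 2.39, SE 0.26, adjusted p = 4.25e-05), and SWP did not pass against MYC WT (log2 fold change -0.11, SE 0.26, adjusted p = 0.853). CHRM2, the M2 receptor of the heart, had no read in MYC WT or SWP and 27 reads in MYC MUT. Against a floor of 3 reads per library MYC MUT exceeded MYC WT at least 2.78-fold. It was under the minimum mean and was not tested. CHRM1 reached at most 1.15 and CHRM5 at most 1.95 normalized counts.

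Serotonin receptors comprise 1 family of channels (HTR3) and several of G protein-coupled receptors. Of 17 genes, 13 had a read and 5 were tested. HTR7 (ENSG00000148680, chr10:90740823-90858039, minus strand), which raises cyclic AMP, had 134, 126 and 115 normalized counts in MYC WT, 292, 292 and 279.6 in MYC MUT and 50.4, 39.4 and 48.4 in SWP. The libraries of each line lay close together and the lines did not overlap. HTR7 was called higher in MYC MUT (log2 fold change 1.201, SE 0.14, adjusted p = 8.1e-05) and lower in SWP (log2 fold change -1.42, SE 0.14, adjusted p = 9.74e-05), and the edited lines differed (log2 fold change 2.62, SE 0.14, adjusted p = 2.39e-07). All 3 calls held in each of 20 alternatives. The 87 other genes tested within 5 Mb had medians of -0.22 and -0.038.

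HTR1D (ENSG00000179546, chr1:23191895-23217502, minus strand), a target of the triptans that couples to inhibitory G proteins, had 85.1, 85.3 and 79.9 normalized counts in MYC WT, 238, 223 and 244 in MYC MUT and 101, 152 and 135 in SWP. It was above MYC WT in both edited lines, in MYC MUT (log2 fold change 1.48, SE 0.16, adjusted p = 4.06e-05) and less in SWP (log2 fold change 0.60, SE 0.16, adjusted p = 0.0333), and the 2 differed (log2 fold change 0.88, SE 0.16, adjusted p = 0.00126). The call in SWP was lost in 10 of 20 alternatives, with no minimum count, with only the 2 groups compared and leaving out any MYC WT library, or any MYC MUT library, or SWP replicate 2 or 3, with an adjusted p of 0.0506 to 0.118. HTR3A (ENSG00000166736, chr11:113975075-113990313, plus strand), the channel subunit that forms receptors alone, had 6.15, 4.49 and 9.63 normalized counts in MYC WT, 18.5, 25.3 and 19.5 in MYC MUT and 11.5, 18.6 and 21.9 in SWP. It was also called higher in both MYC MUT (log2 fold change 1.55, SE 0.33, adjusted p = 0.00378) and SWP (log2 fold change 1.25, SE 0.33, adjusted p = 0.037), and these 2 did not differ by the test (log2 fold change 0.30, SE 0.33, adjusted p = 0.505). The call in SWP was lost in 10 of 19 alternatives, with no minimum count, with only the 2 groups compared, with DESeq2 and leaving out MYC WT replicate 1 or 2, or any MYC MUT library, or SWP replicate 2 or 3, with an adjusted p of 0.0588 to 0.129. HTR1D and HTR3A were the 2 members called higher in SWP.

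HTR2C (ENSG00000147246, chrX:114584078-114910061, plus strand), a receptor coupled to phospholipase C, had 17.4, 12.3 and 10.6 normalized counts in MYC WT, 21.3, 20.4 and 16.6 in MYC MUT and 3.44, 1.49 and 3.46 in SWP, where its 3 libraries held 8 reads in all. It was called lower in SWP (log2 fold change -1.95, SE 0.33, adjusted p = 0.00367) and higher in MYC MUT than in SWP (log2 fold change 2.47, SE 0.33, adjusted p = 0.000185), and MYC MUT overlapped MYC WT (log2 fold change 0.52, SE 0.33, adjusted p = 0.244). HTR6, which raises cyclic AMP, had 80.0, 253 and 157 normalized counts in MYC WT, 113, 132 and 135 in MYC MUT and 39.0, 98.8 and 103 in SWP. The first library of MYC WT and that of SWP were the lowest of their lines. HTR6 did not pass in SWP (log2 fold change -0.99, SE 0.41, adjusted p = 0.173) but was called in 2 of 20 alternatives, with the replicate number as a block and leaving out MYC WT replicate 1, with an adjusted p of 0.0118 to 0.0315, and between the edited lines with the block (log2 fold change 0.77, adjusted p = 0.0168). In MYC MUT it had a log2 fold change of -0.22 (SE 0.41).

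Dopamine receptors couple to stimulating or inhibitory G proteins. Of 5 genes, 4 had a read and 2 were tested, both of the inhibitory kind. Limma called 0 in SWP against MYC WT, with 1 unadjusted p under 0.05, and 0 in MYC MUT against SWP, with 0, and edgeR and DESeq2 called 0 in both. DRD2 (ENSG00000149295, chr11:113409605-113475691, minus strand) had 10.3, 16.8 and 8.66 normalized counts in MYC WT, 22.2, 36.0 and 27.3 in MYC MUT and 20.6, 21.5 and 24.2 in SWP. Both edited lines lay above MYC WT. The rise was called in MYC MUT (log2 fold change 1.21, SE 0.29, adjusted p = 0.00646). SWP did not pass (log2 fold change 0.89, SE 0.29, adjusted p = 0.0781), but was called in 2 of 19 alternatives, with the replicate number as a block and leaving out MYC WT replicate 2, with an adjusted p of 0.0346 to 0.0353. DRD4 had 27.7 to 46.0 normalized counts in MYC WT, 16.5 to 24.4 in MYC MUT and 22.9 to 29.0 in SWP. It was called lower in MYC MUT (log2 fold change -0.72, SE 0.26, adjusted p = 0.0466), and this was lost in 11 of 19 alternatives, with no minimum count, with equal totals, with equal upper quartiles, with only the 2 groups compared, with DESeq2 and leaving out MYC WT replicate 2 or 3, or MYC MUT replicate 1 or 2, or SWP replicate 2 or 3, with an adjusted p of 0.0546 to 0.175. HTR3A and HTR3B lie near DRD2 on chromosome 11, and HTR3B reached at most 5.94 normalized counts.

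Adrenergic receptors respond to adrenaline and noradrenaline. Of 9 genes, 8 had a read and 6 were tested. ADRA1A (ENSG00000120907, chr8:26748150-26867278, minus strand), an alpha-1 receptor coupled to phospholipase C, had 12.3, 62.9 and 53.9 normalized counts in MYC WT, 55.5, 108 and 104 in MYC MUT and 1.15, 0 and 0 in SWP. The SWP libraries held 1 read in all, against 124 in MYC WT and 278 in MYC MUT. The ratio of MYC WT to SWP was 132, with a 95% counting interval of 23.2 to 5244, and the difference was called (adjusted p = 0.000308), as was MYC MUT against SWP (adjusted p = 1.22e-05). MYC WT and MYC MUT overlapped, and their difference did not pass (log2 fold change 1.26, SE 0.56, adjusted p = 0.0992). The 95 other genes tested within 5 Mb had a median of -0.090 in SWP.

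ADRB1, the beta-1 receptor, had 83.8 to 113 normalized counts in MYC WT, 70.3 to 100.1 in MYC MUT and 69.9 to 104.8 in SWP, and all lines overlapped. ADRA2B (chr2:96112876-96116571, minus strand), an inhibitory alpha-2 receptor, had 4.10, 7.86 and 12.5 normalized counts in MYC WT, 20.3, 16.5 and 15.6 in MYC MUT and 5.73, 5.20 and 4.61 in SWP. Its rise in MYC MUT was called against SWP (log2 fold change 1.58, SE 0.36, adjusted p = 0.00557) and against MYC WT (log2 fold change 1.11, SE 0.36, adjusted p = 0.0314). The second of these calls was lost in 7 of 19 alternatives, with no minimum count, with DESeq2 and leaving out MYC WT replicate 1 or 2, or any MYC MUT library, with an adjusted p of 0.0621 to 0.106. ADRA2C, the abundant alpha-2 receptor of these cells, had 1513, 1836 and 1784 in MYC WT, 1905, 1929 and 2221 in MYC MUT and 1182, 1674 and 1921 in SWP. Its log2 fold changes of 0.24 and -0.13 (SE 0.15) did not pass, and it was called in MYC MUT against SWP only without SWP replicate 3 (log2 fold change 0.52, adjusted p = 0.0242). ADRA1B had 23.6 to 38.2, 40.9 to 52.5 and 32.1 to 49.6 and passed no test.

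GRIK2, GRIK1 and GRIN3A were under the minimum over all libraries although their mean in MYC MUT reached 10. GRIK2, a main kainate subunit, had 3.08, 7.86 and 0.963 normalized counts in MYC WT, 27.7, 16.5 and 25.3 in MYC MUT and 1.15, 0 and 0 in SWP. GRIK1, its relative, had 2.05, 4.49 and 11.6 in MYC WT, 12.0, 17.5 and 9.74 in MYC MUT and 0, 0 and 1.15 in SWP. GRIN3A, a glycine-binding NMDA subunit, had 0, 1.12 and 1.93 in MYC WT, 10.2, 9.72 and 12.7 in MYC MUT and 0, 0 and 0 in SWP. The MYC MUT and MYC WT libraries overlapped for GRIK1 and not for the others, and all 3 genes had at most 1.15 normalized counts in SWP. They are given because their MYC MUT mean reached 10, so that a high level there is partly set by the choice. In reads, GRIK2 had 73 in MYC MUT and 1 in SWP, a ratio of 71.8 with a 95% counting interval of 12.5 to 2875, and GRIK1 had 41 and 1, a ratio of 40.3 with an interval of 6.85 to 1631. GRIN3A had 34 reads in MYC MUT and 3 in MYC WT, a ratio of 10.5 with an interval of 3.30 to 53.4, and none in SWP, which makes it at least 3.57-fold higher in MYC MUT than in SWP. The other 4 members below the minimum that reached 10 in some library were GABRR2, a GABA-A subunit of the retina (6.73 to 11.3 in MYC WT, 5.55 to 6.80 in MYC MUT and 2.31 to 12.6 in SWP), GRIK3 (0 to 3.08, 6.80 to 12.9 and 0 to 0), CHRM2 and CHRNE, the epsilon subunit of adult muscle (6.15 to 12.3, 4.62 to 11.7 and 3.44 to 10.4). Below 10 in every library, ADRA1D had 27 reads in MYC MUT and 2 in SWP, a ratio of 13.3 with an interval of 3.34 to 115, and HTR2A had 17 in MYC WT and 1 in SWP, a ratio of 18.1 with an interval of 2.83 to 755. With no minimum, 25 of the 90 members with a read were higher and 2 lower in MYC MUT than in MYC WT, beside 7.48% and 5.99% of the 37215 genes with a read. In SWP against MYC WT 1 and 9 were, beside 1.21% and 1.82% of these genes, and in MYC MUT against SWP 32 and 2 were, beside 8.49% and 4.8%.

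Proteins that receptors need were taken from lists of related genes. The GABA-B receptor, the metabotropic receptor for GABA, is an obligate pair. Of its 5 subunits and regulators, all tested, 2 were higher in MYC MUT, where 11.3% of all genes tested were, and none was called by limma in SWP, where 1 had an unadjusted p under 0.05 and edgeR and DESeq2 called 0. GABBR2 had 203, 318 and 298 normalized counts in MYC WT, 1294, 1309 and 1581 in MYC MUT and 266, 363 and 407 in SWP, and was called higher in MYC MUT (log2 fold change 2.37, SE 0.19, adjusted p = 6.4e-06). Its partner GABBR1 had 889.7 to 1059.6, 646 to 883 and 866 to 1103 and passed no test. KCTD8, a regulator of that receptor, was the second (log2 fold change 2.91, SE 0.33, adjusted p = 5.75e-05). Against SWP, both GABBR2 (2.03) and KCTD8 (3.44 on the log2 scale) were called higher in MYC MUT.

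Of 37 tested genes for assembly, scaffold and auxiliary proteins, 9 were higher and 3 lower in MYC MUT, 2 higher and 1 lower in SWP, and 9 higher and 1 lower in MYC MUT against SWP. In the same order, 11.3% and 10.1%, 2.15% and 2.98%, and 12.3% and 8.31% of all genes tested were. CBLN1, the secreted cerebellin that bridges delta receptors to the presynaptic side, had 34.9, 32.6 and 36.6 normalized counts in MYC WT, 657, 693 and 692 in MYC MUT and 67.6, 89.9 and 91.1 in SWP. CBLN1 was called higher in MYC MUT (log2 fold change 4.26, SE 0.15, adjusted p = 2.47e-08) and in SWP (log2 fold change 1.22, SE 0.15, adjusted p = 0.000371), and the 2 differed (log2 fold change 3.04, SE 0.15, adjusted p = 1.06e-07). GSG1L (2.57) and CACNG4 (2.39 on the log2 scale), auxiliary subunits of AMPA receptors, were the next largest rises in MYC MUT. The falls there were CACNG8 (-0.62), NLGN1 (-0.55) and DLG3 (-0.53). CACNG8, a further AMPA auxiliary subunit, had 544 to 619.6, 330.0 to 441 and 115 to 175 normalized counts and was the list's fall in SWP (log2 fold change -2.05, SE 0.16, adjusted p = 1.6e-05). LYPD1, a modulator of nicotinic receptors, was called higher in SWP (log2 fold change 1.26, SE 0.084, adjusted p = 5.03e-06) and in MYC MUT (log2 fold change 0.92, SE 0.084, adjusted p = 1.41e-05). Against SWP, the largest rises in MYC MUT after CBLN1 were GSG1L (2.40) and CACNG5 (2.35), and DLG3 was the fall (-0.64).

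Of 20 tested genes for transmitter synthesis, uptake and breakdown, 10 were higher and 4 lower in MYC MUT, 1 was higher in SWP, and 10 were higher and 3 lower in MYC MUT against SWP. The shares of all genes tested were 11.3% and 10.1% in MYC MUT, 2.15% higher in SWP, and 12.3% and 8.31% between the edited lines. SLC1A2, an astrocyte glutamate transporter, had 2.24 to 3.08 normalized counts in MYC WT, 21.3 to 35.0 in MYC MUT and 5.73 to 6.92 in SWP and had the largest rise in MYC MUT (log2 fold change 2.96, SE 0.30, adjusted p = 2.84e-05). GLS2, which makes glutamate from glutamine, followed (1.49 on the log2 scale). The largest fall was that of the glycine transporter SLC6A9, with 1208, 3738 and 3384 normalized counts in MYC WT, 314, 471 and 715 in MYC MUT and 864, 1887 and 2257 in SWP (log2 fold change -2.39, SE 0.46, adjusted p = 0.00189), followed by the glutamate transporter SLC1A1 (-0.79). SLC6A11, a GABA transporter, was the gene called higher in SWP (log2 fold change 0.75, SE 0.11, adjusted p = 0.0011). Against SWP, SLC1A2 (2.01) and PNMT, which makes adrenaline (1.87), were among the rises in MYC MUT, and SLC6A9 (-1.70) and SLC1A1 (-1.21) among the falls. The acetylcholine-making enzyme CHAT had no read in any library, and TH, which starts the synthesis of catecholamines, at most 0.974 normalized counts.

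Of 20 tested genes for G proteins, receptor kinases, arrestins and regulators that act on these receptors, 6 were higher and none lower in MYC MUT, none was called in SWP, and 4 were higher in MYC MUT than in SWP. Of all genes tested, 11.3% rose in MYC MUT, 5.13% were called in SWP and 12.3% were higher in MYC MUT than in SWP. For SWP against MYC WT, 4 of the 20 had an unadjusted limma p under 0.05, and edgeR and DESeq2 called 1 each. GNAO1, the inhibitory G protein subunit most abundant in brain, had 168, 309 and 289 normalized counts in MYC WT, 1510.5, 1862 and 2369 in MYC MUT and 105.4, 169 and 196 in SWP. GNAO1 was called higher in MYC MUT both against MYC WT (log2 fold change 2.93, SE 0.27, adjusted p = 1.54e-05) and against SWP (log2 fold change 3.62, SE 0.27, adjusted p = 2.58e-06). RGS4 (1.26) and RGS7 (0.73), which end G protein signals, were the next rises in MYC MUT. Against SWP, RGS4 (1.65) and GNB5 (0.57), the beta subunit that pairs with RGS7, followed GNAO1.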

How the data were processed

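RNA was poly(A)-selected and made into strand-specific libraries of MYC WT, MYC MUT and SWP cells, 3 each. The authors trimmed reads (cutadapt 1.18 per the labels), aligned them to hg38 with bwa mem (BWA 0.7.17-r2188, which leaves reads that span introns unspliced), removed duplicates and counted them on GENCODE genes. The counting tool and its strand setting are not given in the sources used here. The deposited values are a signal, namely counts that the authors divided by DESeq2 size factors. Dividing by each library's smallest step gave whole reads for 100% of values (tolerance 0.0001), between 65024354 and 98497026 on genes per library. Read totals and fold intervals cover counting error only.

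Members were found by symbol among protein-coding genes of GENCODE release 44, which matched 57754 of 58336 gene identifiers, and exon lengths and coordinates (hg38) are from that release. The members and gene lists were chosen with earlier results of these data known. Genes with a mean of at least 10 over the 9 libraries (20884) were fitted as log2(value + 1) with limma 3.58.1, with a variance trend, all 9 libraries in 1 fit and Benjamini-Hochberg adjustment over all genes tested. All fold changes are of log2(value + 1) and so understate changes of low genes. Genes were called where the adjusted p was under 0.05 and the log2 fold change beyond 0.5 in either direction. The labels number the libraries as biological replicates but do not say whether they came from separate cultures or clones, so p-values measure the spread between these libraries. EdgeR 4.0.16 and DESeq2 1.42.0 on the whole reads, other pseudocounts, minimums and scalings, a replicate block and leaving out each library were alternatives. On simulated counts for the 9 libraries with 200 changed genes among 20884, limma called 177 of them and 9 others. The changes had fixed sizes and each count was drawn independently, so these rates need not hold for the real libraries.

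Replicate numbers come from the labels. Deviations of same-numbered libraries from their group means correlated at 0.33, 0.15 and 0.049 between MYC MUT and MYC WT. They correlated at 0.56, 0.40 and 0.10 between SWP and MYC WT and at 0.33, 0.24 and 0.23 between MYC MUT and SWP. Some libraries with different numbers correlated more in the comparisons with MYC WT. SWP replicate 3 did so with MYC WT replicate 2 (0.263), and MYC MUT replicate 2 with MYC WT replicate 3 (0.154). Between MYC MUT and SWP none did, the highest being 0.024. In each comparison, libraries numbered 1 correlated negatively with those numbered 2 or 3 of the other line (-0.477 to -0.115). The first libraries thus shared a difference from the others, and its source was not tested. The main fit took no libraries as paired in any comparison, and the replicate block was run only as an alternative.

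Values were given for each called member, each tested member with a mean of at least 100 in a line, the 10 highest per kilobase in MYC WT, and untested members with a line mean of at least 10. For related lists the 3 largest rises and falls per comparison were named. Other low members named beside them, SNAP25, TH and CHAT were chosen after their values were seen. Promoters (RefSeq, GRCh38.p14) were matched by symbol, for 75 of the 102 members, and searched on both strands, overlaps counted. Some genes are included in the counts but not reported here by name. The series' other 204 samples, from other assays or lines, are not analysed here.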

Additional observations from a re-analysis of the deposited data

How the results depend on the processing

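No receptor gene called in a comparison changed direction in any of the alternatives run. Of the receptor genes called, 16 of 24 (MYC MUT against MYC WT), 6 of 10 (SWP against MYC WT) and 21 of 23 (MYC MUT against SWP) stayed called in each alternative that tested them, and those named above that did not are given with their alternatives beside their values. The number called in the same order was 13, 5 and 14 with a minimum mean of 50, which tests 25 receptor genes, and 27, 10 and 34 with no minimum, which tests 90. With a log2 fold change beyond 1 it was 15 in MYC MUT against MYC WT, and with only the 2 groups compared 6 in SWP against MYC WT, where the cause was not tested. EdgeR on whole reads called 24, 11 and 23 and DESeq2 20, 9 and 23. Leaving out 1 library gave 17 to 24, 7 to 11 and 21 to 24. With the replicate block the counts were 24, 15 and 24: it added 5 calls in SWP, among them DRD2, GRIK5, GRIN2D and HTR6, and HTR6 between the edited lines, and changed no other call of a receptor gene.

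Over all genes, 8021, 2083 and 7944 were called with no fold threshold and 1648, 505 and 1723 beyond 1. Leaving out 1 library gave 3943 to 4942, 841 to 1254 and 3811 to 4784. The median log2 fold change of the receptor genes in MYC MUT against MYC WT was 0.58 with a pseudocount of 10, 0.33 with no minimum, 0.24 with a minimum mean of 50 and 0.77 with equal totals, and in MYC MUT against SWP 0.44 with no minimum. Its ranges without 1 library were 0.64 to 0.71, -0.33 to -0.13 and 0.62 to 0.75. Genes with few reads limit the precision: 62 of the 102 members were below the minimum.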
